A study of Mus musculus with 4 samples.

Results

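The genes described here are 37 cell cycle genes of the mouse, followed across 4 organ primordia of the embryonic gut. They were chosen by gene name, with earlier results of these data known, and fall into 3 classes: 10 genes of G1 control, 12 of DNA replication (S phase) and 15 of mitosis. An array probe was found through the accession of its transcript for 35 of the 37, out of 16995 genes named on the array, and 49 probes represent them. No probe matched Ccnd1 (cyclin D1) or Mki67 (the proliferation antigen Ki-67), which leaves 9 G1, 12 S phase and 14 mitotic genes.

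RNA was taken at embryonic day E11.5 from the lung, esophagus, stomach (spelled "gustric" in the labels) and intestine of ICR mice, an outbred stock, with no treatment or mutation in any group. Each organ was measured on 1 one-colour Agilent array of Cy3-labelled RNA, amplified by a kit for small inputs. The extraction text names the stomach for all 4 samples, and the number of embryos per sample is not given in the sources used here. With 1 array per organ there was no replicate, so no test was possible, no p-value is given, and each fold is a size that holds for these arrays only.

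The cell cycle is driven by kinases that work only when bound to a cyclin. In G1, D-type cyclins with Cdk4 or Cdk6, then E-type cyclins with Cdk2, inactivate the retinoblastoma protein and release E2F transcription factors, which switch on the genes of DNA replication. The DREAM and B-MYB complexes and Foxm1 act on genes needed for mitosis, many through CHR elements and CCAAT boxes close to the start of the gene. The inhibitors p21 (Cdkn1a) and p27 (Cdkn1b) hold cells back. The primordia of the gut organs grow quickly at midgestation, while their epithelium and mesenchyme take on regional identity.

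A level is the log2 of the processed spot signal minus the 75th percentile of the same array, and a difference is the level in the first organ named minus that in the second. Levels are compared only between organs for 1 probe, since probes differ in brightness. The lung array was dimmer than the others: 39.0% of its 43379 spots stood well above background, where the esophagus had 69.3%, the stomach 67.9% and the intestine 74.0%, and its 75th percentile of signal was 32.0 against 379, 320.2 and 991. No spot was saturated. Within an array, copies of 1 probe had a median SD of 0.11 in the lung, 0.09 in the esophagus, 0.08 in the stomach and 0.07 in the intestine, which leaves out all error of dissection, RNA and labelling. Regional transcription factors followed the labels. Nkx2-1 was at 2.47 in lung and −1.10 in esophagus, and was not well above background in stomach and intestine. Barx1 was at 4.49 in stomach against 0.92 in esophagus and −4.35 in intestine, and Cdx2 at 1.90 in intestine against −4.31 in stomach. The arrays shared 1 slide and 1 scan, and array and organ cannot be told apart.

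**Figure D1:**
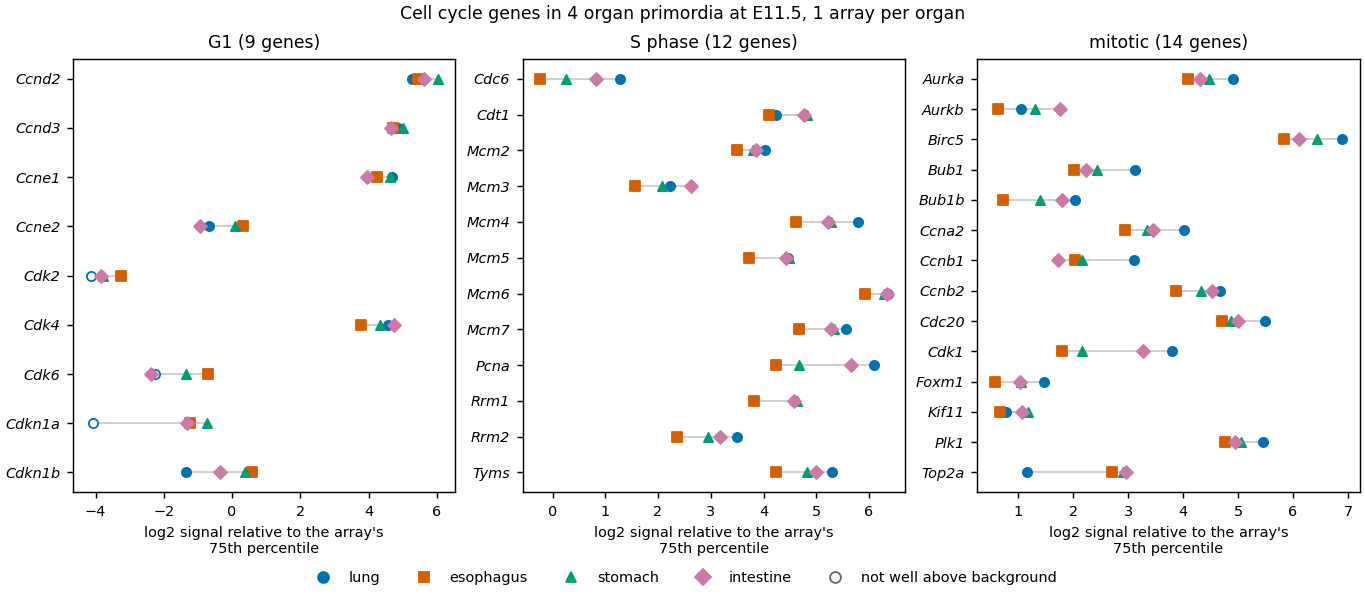
Level of the 35 genes in each organ, in 3 panels by class. The horizontal axis is log2 signal relative to the 75th percentile of the array, each marker is 1 organ on 1 array (the brightest probe of the gene), and open markers were not well above background. In the S phase panel the esophagus marker is the leftmost for all 12 genes.

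The replication genes had their lowest level in the esophagus. All 12 S phase genes were well above background in every organ, and in all 12 the esophagus was lowest, against 42.8% of the 9497 genes that were bright on every array. Their median difference was −0.58 in esophagus over stomach and −0.72 in esophagus over intestine, where the medians of all genes were −0.16 and −0.12. In RNA of whole primordia, fewer cells in S phase and less RNA per cell cannot be told apart.

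Pcna, the clamp that holds DNA polymerases on the template, was spotted 10 times on each array. Its level was 6.09 in the lung, 4.23 in the esophagus, 4.67 in the stomach and 5.67 in the intestine, with an SD over copies of 0.07, 0.03, 0.07 and 0.07. Lung and intestine were high, and esophagus and stomach low. Pcna was 2.70-fold lower in esophagus than in intestine, the largest gap of the 12 in that pair, and 3.64-fold higher in lung than in esophagus. Over 10 other settings the log2 difference in lung over esophagus ran from 0.54 to 2.45, and that in lung over intestine from −1.01 to 0.51.

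Mcm2 to Mcm7 encode the 6 subunits of the helicase that unwinds DNA ahead of the fork. Mcm4 was at 5.80 in the lung, 4.62 in the esophagus, 5.29 in the stomach and 5.23 in the intestine. Mcm6 was at 6.35 in the lung, 5.92 in the esophagus, 6.28 in the stomach and 6.34 in the intestine. For both, the other 3 organs lay above the esophagus, by more for Mcm4 than for Mcm6. Mcm3 was at 2.22 in the lung, 1.56 in the esophagus, 2.07 in the stomach and 2.62 in the intestine, so that intestine, not lung, was highest. The differences of Mcm2, Mcm5 and Mcm7 in esophagus over intestine were −0.36, −0.69 and −0.59, and in esophagus over stomach −0.31, −0.75 and −0.66. All 6 subunits were thus lower in esophagus than in both, by amounts that ranged in esophagus over intestine between the −0.36 of Mcm2 and the −1.06 of Mcm3.

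Cdc6 and Cdt1 load the helicase onto origins. Cdc6 was at 1.28 in the lung, −0.24 in the esophagus, 0.26 in the stomach and 0.82 in the intestine. Cdt1 was at 4.23 in the lung, 4.09 in the esophagus, 4.82 in the stomach and 4.76 in the intestine. Lung was the highest organ by this probe of Cdc6 but stood only 0.14 above the esophagus for Cdt1. A second probe of Cdc6 put intestine (0.47) above lung (0.45) and gave −0.77 in esophagus over intestine, where the brighter one gave −1.06.

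Rrm1 and Rrm2 are the subunits of ribonucleotide reductase, and Tyms is thymidylate synthase, both enzymes of nucleotide supply. Rrm1 was at 4.57 in the lung, 3.82 in the esophagus, 4.63 in the stomach and 4.57 in the intestine. Rrm2 was at 3.50 in the lung, 2.36 in the esophagus, 2.94 in the stomach and 3.17 in the intestine. Rrm1 was close to equal in 3 organs and low in the esophagus, and its −0.81 in esophagus over stomach was the largest gap of the class in that pair. Tyms was at 5.31 in the lung, 4.24 in the esophagus, 4.82 in the stomach and 4.99 in the intestine. A second Tyms probe kept that order, with −0.70 against −0.75 in esophagus over intestine.

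The promoters of 2 of these genes are shown because E2F sites are the textbook link between G1 control and replication genes. Each is the 160 bases before the annotated start, 5′ to 3′ on the strand of the gene, taken from RefSeq on build GRCm38.p6. Mcm6 lies at chr1:128359706-128359865 on the minus strand and Rrm1 at chr7:102441535-102441694 on the plus strand. Capitals mark E2F motifs and CCAAT boxes on either strand.
Mcm6: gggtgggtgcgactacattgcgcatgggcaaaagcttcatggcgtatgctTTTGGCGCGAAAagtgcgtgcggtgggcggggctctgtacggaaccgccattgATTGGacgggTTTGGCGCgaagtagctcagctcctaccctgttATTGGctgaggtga
Rrm1: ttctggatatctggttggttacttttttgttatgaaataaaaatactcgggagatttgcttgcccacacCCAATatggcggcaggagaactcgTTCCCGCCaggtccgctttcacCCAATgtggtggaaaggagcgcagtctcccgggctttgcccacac
Mcm6 holds 3 E2F site matches that begin 110, 106 and 47 bases before the start, the first 2 overlapping on opposite strands, and CCAAT boxes at 57 and 14. Rrm1 holds 1 E2F core match at 67 and CCAAT boxes at 91 and 45.

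The mitotic genes were also low in the esophagus, with smaller medians. The esophagus was lowest for 12 of 14, and the exceptions were Ccnb1 and Top2a, whose probes disagree. By the brightest probes all 14 were lower in esophagus than in stomach and 13 of 14 lower than in intestine, where 63.4% and 57.5% of all genes well above background on both arrays were. Second probes of Kif11 and Top2a put the esophagus above both organs, and with the mean of probes 13 of 14 were lower than in stomach. The median difference was −0.41 in esophagus over stomach and −0.34 in esophagus over intestine.

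Cdk1, the kinase that drives entry into mitosis, spanned the widest range of the 14. Its level was 3.79 in the lung, 1.79 in the esophagus, 2.16 in the stomach and 3.27 in the intestine. Lung and intestine were again high. Cdk1 was 2.79-fold lower in esophagus than in intestine and 4.01-fold higher in lung than in esophagus, where the log2 difference ran from 0.80 to 2.59 over 10 other settings. Its second probe was well above background only in intestine and gives no second measure.

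The cyclins that pair with it were less far apart. Ccna2 was at 4.02 in the lung, 2.94 in the esophagus, 3.35 in the stomach and 3.46 in the intestine, and Ccnb2 at 4.67, 3.87, 4.33 and 4.52 in the same order. Ccnb1 was at 3.11 in the lung, 2.03 in the esophagus, 2.15 in the stomach and 1.73 in the intestine by its brightest probe. Its 3 probes all put lung highest and the esophagus below the stomach, by 0.13 to 0.52, but in esophagus over intestine they ran from −0.58 to 0.30, so the lowest organ of Ccnb1 depends on the probe.

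Bub1 and Bub1b act in the spindle checkpoint, which delays anaphase until chromosomes are attached. Bub1b was at 2.03 in the lung, 0.72 in the esophagus, 1.40 in the stomach and 1.79 in the intestine. Bub1 was at 3.12 in the lung, 2.01 in the esophagus, 2.43 in the stomach and 2.23 in the intestine. Bub1b was 2.11-fold lower in esophagus than in intestine, whereas Bub1 differed by −0.21 on the log2 scale. Cdc20, which activates the anaphase-promoting complex, was at 5.48 in the lung, 4.71 in the esophagus, 4.87 in the stomach and 4.99 in the intestine, with only 0.16 between esophagus and stomach.

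The mitotic kinases Aurka and Plk1 act at centrosomes and spindle poles, and Aurkb with Birc5 (survivin) forms part of the chromosomal passenger complex. Aurkb was at 1.05 in the lung, 0.62 in the esophagus, 1.31 in the stomach and 1.76 in the intestine. Birc5 was at 6.89 in the lung, 5.84 in the esophagus, 6.44 in the stomach and 6.11 in the intestine. Both were lowest in the esophagus, but Aurkb was highest in intestine and Birc5 in lung. In esophagus over intestine Aurka differed by −0.22, Plk1 by −0.17 and Foxm1, a transcription factor of mitotic genes, by −0.46.

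Kif11, the kinesin that pushes spindle poles apart, and Top2a, the topoisomerase that untangles chromosomes, had probes that disagreed. Kif11 differed by −0.40 in esophagus over intestine by its brighter probe and by 1.51 by the dimmer one. Top2a was at 1.16 in the lung, 2.70 in the esophagus, 2.90 in the stomach and 2.96 in the intestine by its brighter probe, against 2.33, 2.51, 1.83 and 1.09 by the other. The lung was lowest by the first and above stomach and intestine by the second, so no organ order is given for Top2a.

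**Figure D2:**
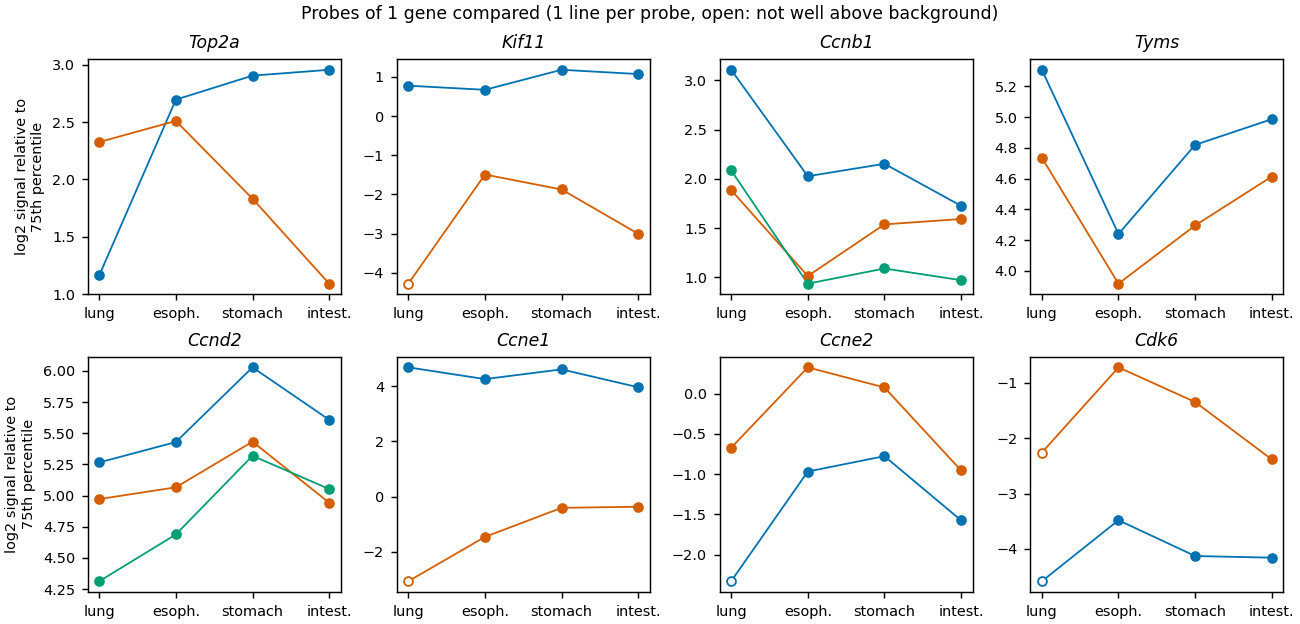
Level by organ for 8 genes with several probes, 1 line per probe, open markers not well above background. The vertical axis is log2 signal relative to the 75th percentile of the array. The lines of Tyms and Ccnd2 run alike between esophagus and stomach, while those of Top2a cross.

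Promoters of 3 mitotic genes are shown for the CHR element and the CCAAT box, the pair of motifs known from such genes. They come from the same source and cover the same 160 bases. Cdk1 lies at chr10:69352913-69353072 (minus strand), Cdc20 at chr4:118437344-118437503 (minus strand) and Kif11 at chr19:37376222-37376381 (plus strand). Capitals mark CHR, CCAAT and E2F motifs.
Cdk1: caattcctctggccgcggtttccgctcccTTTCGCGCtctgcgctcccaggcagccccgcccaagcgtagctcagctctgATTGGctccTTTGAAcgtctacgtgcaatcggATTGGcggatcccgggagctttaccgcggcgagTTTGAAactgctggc
Cdc20: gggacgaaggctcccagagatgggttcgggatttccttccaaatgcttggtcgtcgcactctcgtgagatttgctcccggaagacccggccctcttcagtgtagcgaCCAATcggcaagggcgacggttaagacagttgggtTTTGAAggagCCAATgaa
Kif11: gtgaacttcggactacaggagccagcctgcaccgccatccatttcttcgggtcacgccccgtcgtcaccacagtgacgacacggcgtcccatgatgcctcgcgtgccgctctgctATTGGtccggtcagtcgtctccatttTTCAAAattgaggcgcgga
A CHR begins 71 and 15 bases before the start in Cdk1, 18 in Cdc20 and 19 in Kif11. CCAAT boxes begin at 80 and 48 in Cdk1, 53 and 8 in Cdc20 and 45 in Kif11, and Cdk1 alone of the 12 mitotic genes with a promoter holds an E2F site, at 131.

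Motifs were searched on both strands over 300 bases, 250 before and 50 after the start, for the 30 of 37 genes in the RefSeq table. The letters were TTTGAA or TTCGAA for CHR, CCAAT for the box, TTTCCCGC, TTTGGCGC, TTTGCCGC or TTTCGCGC for the E2F site, and GGCGGGAA or TTCCCGCC for the E2F core. TTCGAA reads the same on both strands, and the E2F core overlaps with TTTCCCGC. CHR was found in 10 of 12 mitotic, 2 of 11 S phase and 0 of 7 G1 genes, against 21.7% of the 27025 genes of the table, each counted if any of its promoters held the motif. An E2F site or core was found in 7 of 11 S phase genes, 1 of 12 mitotic and 1 of 7 G1 genes, against 4.46%. A CCAAT box was found in 11 of 12 mitotic, 8 of 11 S phase and 3 of 7 G1 genes, against 41.1%. A match describes the letters only and is not a bound site.

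**Figure D3:**
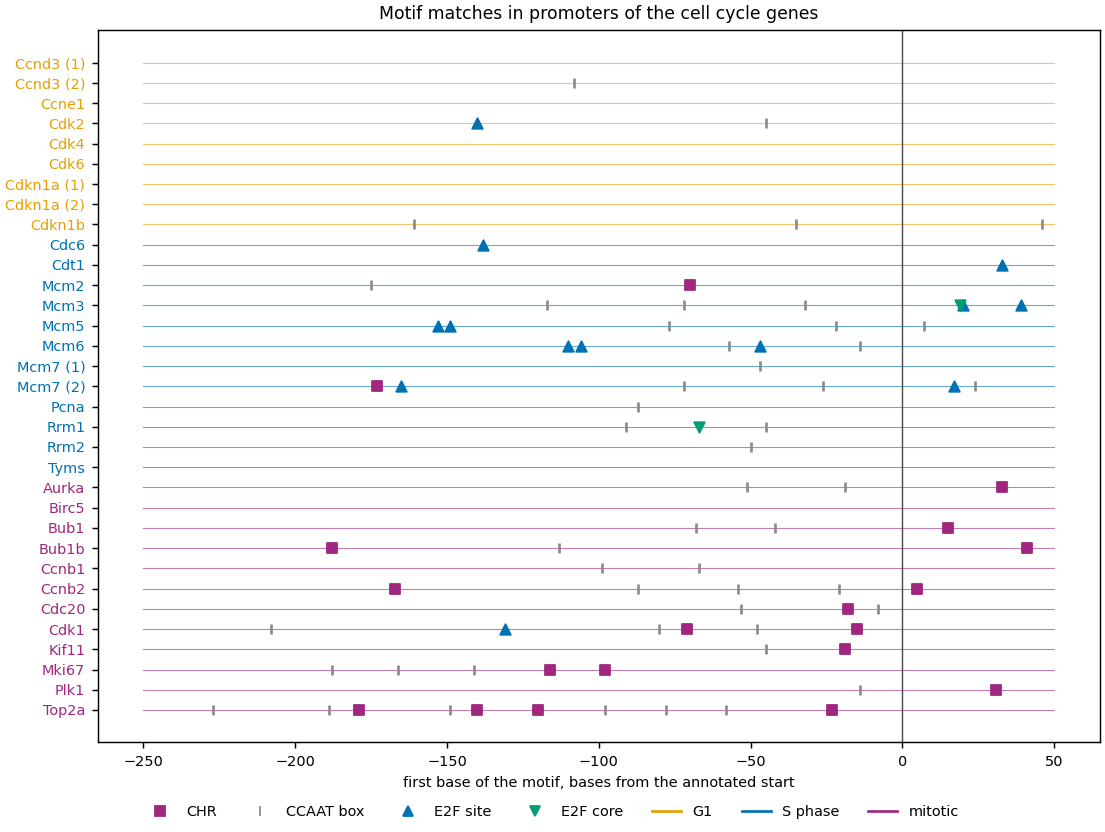
Position of each motif match in the promoters of 30 genes, in bases from the annotated start on the horizontal axis. Each line is 1 promoter of 300 bases, coloured by class, and genes with 2 promoters have 2 lines. The squares for CHR sit mostly on mitotic genes and the triangles for E2F mostly on S phase genes.

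The G1 genes did not follow the same order. Of the 9 with a probe, 6 were well above background in every organ, and among those the esophagus was lowest for 1, Cdk4. In esophagus over intestine 7 of 9 were higher, against 42.5% of all genes. With each array centred on its median 4 of 9 were, and the class median was −0.21. That setting shifts a whole array, and 7 of 9 stayed above the median of all genes. In stomach over intestine 8 of 9 were higher, against 54.1%. Their median difference was 0.30 in esophagus over intestine and 0.60 in stomach over intestine. These counts and medians use the brightest probes. In esophagus over intestine the second probe of Ccne1 gave −1.09, and a dimmer probe of Ccnd2 gave 0.12 against −0.18. In stomach over intestine second probes of Ccne1 and Cdk2 gave −0.04 and −0.82. Those of Ccne2, Cdk6 and Cdkn1b kept the sign in both pairs.

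The D-type cyclins are the first to respond to growth signals. The brightest probe of Ccnd2 was at 5.27 in the lung, 5.43 in the esophagus, 6.03 in the stomach and 5.61 in the intestine. All 3 of its probes were highest in stomach. Ccnd3 was highest in stomach and lowest in intestine, 0.35 apart, the narrowest range of the members. Cdk4, their kinase partner, was at 4.56 in the lung, 3.77 in the esophagus, 4.32 in the stomach and 4.73 in the intestine. It was lowest in the esophagus, as the replication genes were, but of those only Mcm3 had the same order of all organs. Cdk6, the other partner, ran the opposite way among the gut segments, at −0.72 in the esophagus, −1.35 in the stomach and −2.38 in the intestine, and was not well above background in lung. It was 3.17-fold higher in esophagus than in intestine by its brighter probe. A dimmer probe gave differences of 0.68 in esophagus over intestine and 0.03 in stomach over intestine, against 1.66 and 1.04.

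The E-type cyclins and Cdk2 act at the entry into S phase. Ccne2 was at −0.67 in the lung, 0.33 in the esophagus, 0.08 in the stomach and −0.95 in the intestine, 2.43-fold higher in esophagus than in intestine. Its dimmer probe gave 0.61 in that pair, against 1.28. Ccne1 was at 4.68 in the lung, 4.26 in the esophagus, 4.61 in the stomach and 3.96 in the intestine, but its second probe put intestine 1.09 above the esophagus. Cdk2 was dim in every organ. Its brighter probe was at −3.24 in the esophagus, −3.77 in the stomach and −3.83 in the intestine, and not well above background in lung. Its dimmer probe put intestine (−4.06) above stomach (−4.88) and was not well above background in lung and esophagus.

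Each inhibitor had a probe spotted 10 times. Cdkn1b was at −1.36 in the lung, 0.58 in the esophagus, 0.37 in the stomach and −0.36 in the intestine, with an SD over copies of 0.30 in lung and 0.03 to 0.06 elsewhere. It was lowest in lung, 3.84-fold below esophagus. Over 10 other settings the log2 difference ran from −2.24 to −0.77 in lung over esophagus and from −1.21 to 0.03 in lung over intestine. A dimmer probe of Cdkn1b, spotted once, was not well above background in lung. In esophagus over intestine that probe gave 1.60, against 0.94 by the brighter one. Cdkn1a was at −1.24 in the esophagus, −0.73 in the stomach and −1.33 in the intestine, and was not well above background in lung, where its signal was 1.91 against 160, 193 and 393. It was at least 2.22-fold lower in lung than in esophagus, at least 3.16-fold lower than in stomach and at least 2.08-fold lower than in intestine. Each bound sets the level in the brighter organ against the lowest lung signal well above background. With median centring the bound against esophagus was 1.48-fold, and under normexp that against stomach was 1.02-fold and the other pairs had none.

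Members were then counted when at least 2-fold apart. In esophagus over stomach 0 of 35 were, against 9.90% of all genes, so that the low esophagus values there were many and small. In esophagus over intestine 8 of 35 were, 2 higher and 6 lower, against 20.6% of all genes (11.9% higher and 8.71% lower). The 2 higher were the G1 genes Ccne2 and Cdk6, and the 6 lower were Mcm3, Cdc6, Pcna, Cdk1, Aurkb and Bub1b. Second probes of Ccne2 (0.61), Cdk6 (0.68) and Cdc6 (−0.77) kept the sign but did not reach 2-fold. Those of Cdkn1b (1.60), Kif11 (1.51), Top2a (1.42) and Ccne1 (−1.09) passed 2-fold where the brightest probe did not. In stomach over intestine 3 of 35 were, against 12.4%: Ccne2 and Cdk6 higher, Cdk1 lower. As shares of the members, 22.9% were apart in esophagus over intestine, with 5.71% higher and 17.1% lower, so that the total was near that of all genes and the lower side above it.

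In lung over esophagus 15 of 34 were at least 2-fold apart, 11 higher and 4 lower, against 25.6% of all genes (16.2% higher and 9.42% lower). The 11 higher were Mcm4, Cdc6, Pcna, Tyms, Rrm2, Ccna2, Ccnb1, Cdk1, Bub1, Bub1b and Birc5, by 2.08-fold for Birc5 to 4.01-fold for Cdk1. Dimmer probes of Cdc6 (0.76), Tyms (0.82) and Ccnb1 (0.87) kept the sign but did not reach 2-fold, while another of Ccnb1 (1.15) did. Over 10 other settings Birc5 ran from −0.25 to 1.64 on the log2 scale. The 4 lower were Cdk6, Cdkn1a, Cdkn1b and Top2a, of which Top2a differed by −0.18 by its other probe. As shares of the members, 44.1% were apart, 32.4% higher and 11.8% lower. In lung over stomach 6 of 34 were, against 23.9%, and in lung over intestine 4 of 33, against 20.6%. Lung was the highest organ for 8 of 12 S phase and 11 of 14 mitotic genes, against 48.9% of all genes. These lung values depended on the processing, and the cause was not tested. With cyclic loess lung was highest for 3 of 12 and 7 of 14, against 38.5% of all genes. Under normexp, which also adds an offset and starts from the median spot signal, lung was highest for 0 of 12 and 0 of 14 (24.7% of all genes) and lowest for 10 of 12 and 10 of 14 (51.6%), and the esophagus was then lowest for 2 and 3 (22.5%).

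**Figure D4:**
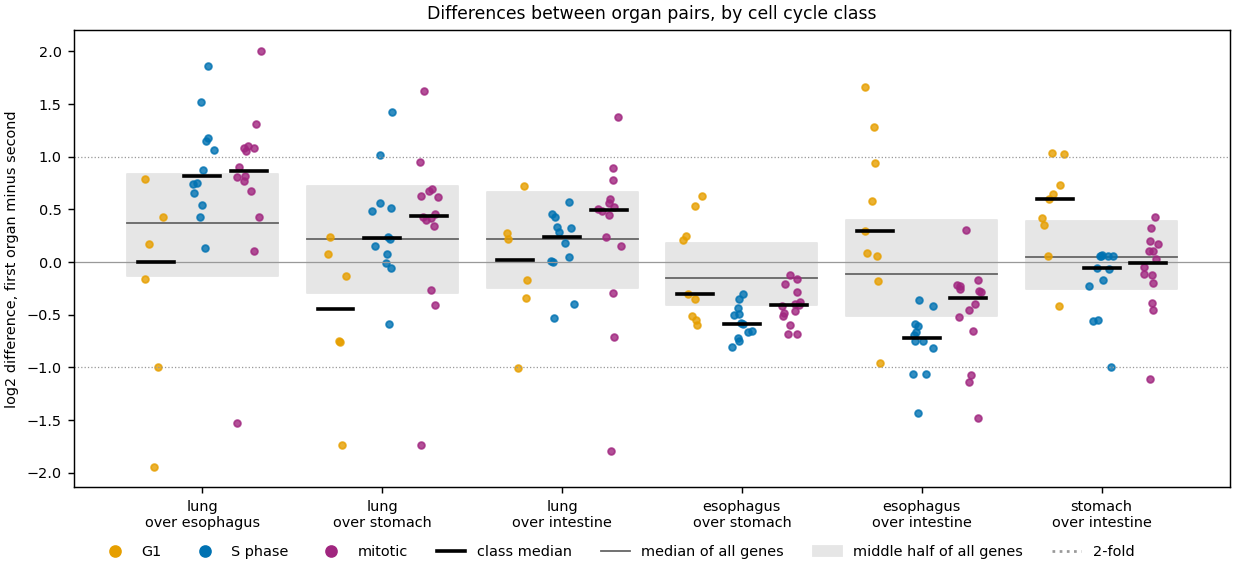
Difference of each gene in the 6 organ pairs, by class, on the log2 scale (first organ minus second). Points are genes well above background on both arrays, black bars class medians, grey lines and boxes the median and interquartile range of all genes, and dotted lines 2-fold. In esophagus over stomach all S phase and mitotic points lie below 0 and none reaches 2-fold.

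Relative to the median of all genes, the S phase median was −0.60 in esophagus over intestine, the mitotic −0.23 and the G1 0.41. In esophagus over stomach they were −0.43, −0.26 and −0.14, and in stomach over intestine −0.11, −0.06 and 0.55. The G1 median minus the S phase median, in which a shift of a whole array cancels, was 1.01 in esophagus over intestine, 0.66 in stomach over intestine and 0.28 in esophagus over stomach. The mitotic minus the S phase median was 0.37, 0.05 and 0.17 in the same pairs.

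These signs between gut segments held under 11 other ways of processing for the S phase genes. All 12 stayed below 0 in esophagus over stomach and in esophagus over intestine. A median relative to all genes cannot move under the 3 settings that shift a whole array. Under the other 8 it stayed between −0.48 and −0.29 in the first and between −0.87 and −0.42 in the second. Of those 8, the series table, flagged spots kept, no filter on dim probes and only genes bright on all 4 arrays could hardly move these genes. Under each of them the S phase median in esophagus over intestine was −0.72 before it was set against all genes. The mitotic genes kept 13 or 14 of 14 below 0 in both pairs, with relative medians of −0.31 to −0.14 and −0.49 to −0.12. The G1 median relative to all genes lay between 0.19 and 0.41 in esophagus over intestine and between 0.48 and 0.58 in stomach over intestine. In esophagus over stomach it ran from −0.20 to 0.06, so its sign depended on the setting. So did that of the mitotic median in stomach over intestine, which ran from −0.25 to 0.02.

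**Figure D5:**
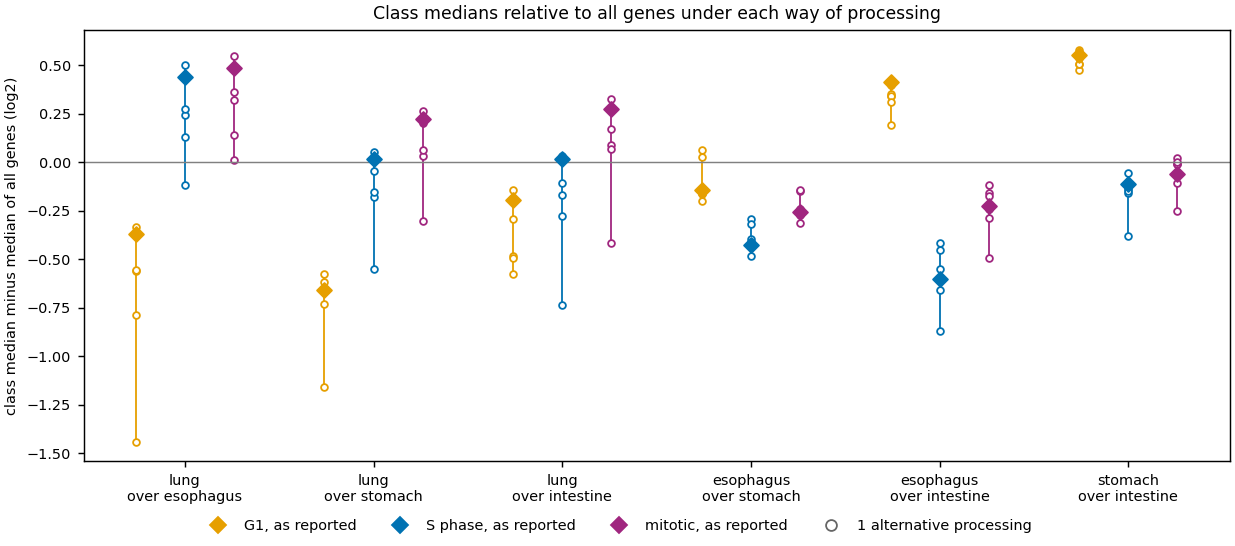
Class median minus the median of all genes, on the log2 scale, for each organ pair. Diamonds are the values as reported and open circles each of 11 alternatives, 3 of which shift a whole array and fall on the diamond. The S phase circles stay below 0 in esophagus over stomach and over intestine, while in the 3 lung pairs they spread on both sides of 0.

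Genes with several probes gave a measure of error that copies of 1 probe do not. In esophagus over stomach the probes of 7 of 10 such members agreed in sign, against 59.0% of all genes with several bright probes. In esophagus over intestine 5 of 10 agreed, against 56.2%, and in stomach over intestine 7 of 11, against 56.3%. In lung over esophagus 5 of 5 agreed, against 53.5%, in lung over stomach 4 of 5, against 53.1%, and in lung over intestine 2 of 5, against 54.0%. The SD between probes of 1 gene, over all genes, was 0.38 in esophagus over stomach and 0.77 in esophagus over intestine. It was 0.89 in lung over esophagus, 0.80 in lung over stomach and 0.68 in lung over intestine. A difference of a single gene at or below these sizes is within the error between probes.

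Further genes of the same pathways were taken from lists. Of 39 replication genes such as origin recognition, GINS and polymerase subunits, 38 had a probe, and 37 of those 38 were lower in esophagus than in stomach and 37 lower than in intestine, against the 63.4% and 57.5% of all genes. Their median relative to all genes was −0.28 and −0.38. At least 2-fold lower in esophagus than in intestine were 6 of 38, against the 8.71% of all genes, and 0 were higher. The lowest was Cdc45, a helicase partner, at −1.65 in esophagus against 0.22 in intestine, and next came Rfc3, of the clamp loader, at 0.28 against 1.60. Of 50 mitotic genes 49 had a probe, with 40 of 49 lower in esophagus than in stomach and 42 lower than in intestine. Their relative medians were −0.27 and −0.44. In esophagus over intestine the mitotic list thus lay lower than the replication list, the reverse of the order among the members. The mitotic kinesin Kif20a was 2.61-fold lower in esophagus than in intestine and 2.41-fold lower than in stomach. Not all followed: Anln (anillin, of the cleavage furrow) was 3.05-fold higher and Hmmr (a spindle protein) 2.68-fold higher in esophagus than in intestine.

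Markers of other tissues differed between the arrays as well. The summed linear level of 8 heart muscle genes, all with a probe, was 9.51 in the lung, 131 in the esophagus, 3.52 in the stomach and 4.09 in the intestine, in units of the 75th percentile of each array. All 8 were at least 2-fold higher in esophagus than in stomach and in intestine, so the low replication and mitotic values stood in the sample with the most heart muscle RNA. Erythroid genes, 10 of 12 with a probe, summed to 1397 in the lung, 362 in the esophagus, 507 in the stomach and 353 in the intestine, highest in lung. Liver genes, 7 of 8 with a probe, summed to 27.6, 10.2, 3.41 and 64.4 in that order of organs. Epithelial genes summed to 42.05, 33.1, 98.9 and 50.6, and mesenchymal genes to 191, 155, 113 and 123. Neuronal genes summed to 4.66, 13.84, 13.95 and 11.70, endothelial genes to 6.25, 7.28, 5.96 and 8.93, and macrophage and mesothelial genes to at most 3.60. Skeletal muscle genes summed to 0.26, 2.05, 0.10 and 0.095, and all 3 with a difference were at least 2-fold higher in esophagus than in stomach and in intestine. The part of these tissues in the cell cycle values was not tested.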

How the data were processed

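The deposited scanner files hold spot intensity on a linear scale, background-subtracted and detrended by the authors' scanner software (Agilent Feature Extraction 10.5.1.1, protocol GE1_105_Dec08, design 014868, build mm8), per the file headers. The deposited series table holds log2 values and matched the log2 processed signal minus the 75th percentile of the array (r of 0.99996 to 0.99998). Its column medians were −3.56 (lung), −2.97 (esophagus), −3.17 (stomach) and −3.47 (intestine). Only this match tells its scale, centring and direction. The well-above-background and outlier flags are the software's own, per the file headers.

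Copies of a probe were averaged on the log2 scale without outlier-flagged spots, which dropped 69 of 41174 probes, and the 75th percentile was taken over the remaining 41105. A first calculation had taken it over single spots. It was changed after its values had been seen, because the plan names probes, and the first version is kept among the alternatives. A gene took the value of its brightest probe by mean level. RefSeq names (GRCm38.p6, names only) were matched for 24375 probes (59.2%) by unversioned accession. Where 1 of 2 arrays was not well above background, it was set to its array's lowest level well above background, or to its own level if that was higher, giving a bound. Those lowest levels were −2.39 (lung), −5.75 (esophagus), −5.78 (stomach) and −6.92 (intestine). Class medians used genes well above background on both arrays. The number of arrays limits the precision.

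The members, classes and lists were chosen with earlier results of these data known. All members are given, and from the lists at most the 2 highest and 2 lowest genes of a pair were named. Normexp (limma 3.58.1, R 4.3.3, offset 50) used the median signal of each spot, since the scanner files hold no mean signal. Other calculations used Python 3.11.15 with numpy 2.4.6 and pandas 2.3.3, and the counting step was tested on simulated data.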

Additional observations from a re-analysis of the deposited data

How the results depend on the processing

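Of 448 values recomputed under other settings, 364 kept their direction and moved by no more than the tolerance, 60 moved beyond it with no change of sign, and 24 changed sign, 8 of them from a value beyond the tolerance and 16 from one within it. The tolerance was the SD between probes of 1 gene divided by the root of the number of members, or 1.5 times for a count, set after the arrays had been seen. Differences are log2, first organ over second. Counts of members apart are given below without the share of all genes at the same setting, which may also move. They describe the setting only and are no result about the members. The cause was not tested. No value moved beyond the tolerance under the series table, flagged spots kept, genes bright on all 4 arrays only, or the percentile over spots.

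At 1.5-fold in place of 2-fold, the members apart were 18 in esophagus over intestine, 11 in esophagus over stomach, 26 in lung over esophagus, 9 in lung over intestine, 14 in lung over stomach and 7 in stomach over intestine.

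With the 75th percentile over probes bright on all 4 arrays, lung over esophagus gave 0.51 for S phase, 0.56 for mitotic and 9 members apart, and lung over intestine 0.029 and 0.29. The mean of probes gave 2 members apart in lung over intestine. With no filter on dim probes, lung over esophagus gave −0.90 for G1 (a changed sign) and −1.71 for G1 minus S phase.

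Median centring gave, for G1, −0.21 in esophagus over intestine (a changed sign), −0.50 in esophagus over stomach, 0.59 in lung over esophagus, −0.055 in lung over stomach and 0.30 in stomach over intestine. For S phase it gave −1.22, −0.78, 1.40, 0.62 and −0.36 in the same pairs, and for mitotic −0.85, −0.61, 1.45, 0.83 and −0.31. Members apart were 17, 1, 26 and 10 in the first 4 of them and 2 in lung over intestine.

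Quantile normalization gave, in esophagus over stomach, −0.060 for G1, −0.42 for S phase and −0.27 for mitotic. In lung over esophagus it gave 0.47 for S phase, 0.58 for mitotic and 7 members apart, and in lung over intestine −0.020 (a changed sign), 0.26 and 2.

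Cyclic loess, chosen after seeing the data, gave in esophagus over stomach −0.082 for G1, −0.43 for S phase and −0.25 for mitotic. In lung over esophagus these were −0.67 (a changed sign), 0.24 and 0.25, and in lung over intestine −0.46, −0.24 (both changed) and 0.10. In lung over stomach S phase was −0.12 (a changed sign) and mitotic 0.10. Members apart were 5 in esophagus over intestine and 8 in lung over esophagus. Lung was highest for 3 S phase and 7 mitotic genes, against 38.5% of all genes.

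Normexp turned the lung pairs. S phase was −0.33 in lung over esophagus, −1.17 in lung over intestine and −0.86 in lung over stomach, mitotic −0.19, −0.85 and −0.61, and G1 −0.76, −0.92 and −1.05, all changes of sign but the last. G1 minus S phase was 0.25 (a changed sign) in lung over intestine and −0.18 in lung over stomach, and S phase was −0.28 in stomach over intestine. Members apart were 4 in lung over esophagus and 15 in lung over intestine. Lung was highest for 0 S phase and 0 mitotic genes (24.7% of all genes), and the esophagus lowest for 2 and 3 (22.5%). Without the lung array, the esophagus was lowest for 12 of 12 S phase and 13 of 14 mitotic genes, against 48.6% of all genes.

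No paired analysis was possible because each organ has 1 array. The slide could not be a block, since all 4 arrays share it. The dim lung array bounds low genes, as the values of Cdk2, Cdk6 and Cdkn1a show.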

Other observations

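The lists of further G1 regulators and p53 targets, which the comparisons above leave out, did not share the low esophagus values. All 25 G1 regulators had a probe, and their median relative to all genes was 0.08 in esophagus over intestine and 0.14 in esophagus over stomach. In stomach over intestine it was −0.07. Above 0 were 12 of 24 in esophagus over intestine (42.5% of all genes) and 9 of 23 in stomach over intestine (54.1%). The G1 members had relative medians of 0.41 and 0.55 in these pairs. This list was thus closer to all genes in the first and did not share the higher stomach values in the second. In esophagus over intestine 2 of 24 were at least 2-fold higher and 2 lower, against 11.9% and 8.71% of all genes. Higher were E2f3, an activating E2F, at 0.75 in esophagus against −0.64 in intestine, and Cdkn1c (the inhibitor p57), at 7.30 against 6.29. Lower were Rbl1 (the pocket protein p107), at −0.69 in esophagus against 0.85 in intestine, and Cdk7, the kinase that activates other cell cycle kinases, at −0.22 against 0.78. All 16 p53 targets had a probe, with a relative median of 0.39 in esophagus over intestine and 1 of 15 at least 2-fold higher (Btg2, by 1.24) and 1 lower (Fas, at −4.16 in esophagus against −2.72 in intestine).

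In lung, some list genes stood farther above all 3 other organs than any member, among them Kif15, Plk2, Btg2 and Dbf4. Kif15, a mitotic kinesin, was at 1.99 in lung, against −1.12 in the esophagus, −1.19 in the stomach and −0.52 in the intestine. Plk2, a kinase and p53 target, was at 3.23 in lung, against 1.08 in the esophagus, 0.38 in the stomach and 0.21 in the intestine. In the opposite direction, Cdc25a, the phosphatase that activates Cdk2, was at −0.99 in lung, against 0.79 in the esophagus, 0.57 in the stomach and 0.33 in the intestine. These lung values were not recomputed under other settings.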
